A study of Mus musculus with 2 samples.

Results

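Expression of 10 genes of the interleukin-6 and interleukin-12 cytokine families was examined in mouse bone marrow-derived macrophages: the ligand genes Il6, Osm and Lif, the subunit genes Il12a, Il12b, Il23a, Il27 and Ebi3, and the receptor genes Il6ra and Il6st. They were taken by gene symbol from a list of family members, and all 10 were found among the 55536 annotated genes of the deposited tables. The macrophages were primary cells grown from marrow of C57BL/6J mice, whose sex and age were not collected. Every cell received Lipid A at 100 ng/mL for 12 h, was kept without it for 12 h, and was then given 100 ng/mL again for 30 min before polyadenylated RNA was sequenced. Lipid A, the lipid anchor of lipopolysaccharide from bacteria, is bound by Tlr4 with its partner Md2. A second label of these samples calls the agent lipoprotein A. The study has 1 group of 2 biological replicates that share a donor record, and whether they came from separate mice is not stated. With no untreated or singly treated cells in the group, the values are levels after restimulation and the spread between the replicates, and no induction can be read from them.

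Interleukin-6 first binds its own receptor chain, encoded by Il6ra, and this pair then engages gp130, the signal-transducing chain encoded by Il6st. Leukemia inhibitory factor (Lif) and oncostatin M (Osm) also signal through gp130, paired with Lifr or Osmr. The interleukin-12 family is built from paired subunits. The p40 chain encoded by Il12b pairs with p35 (Il12a) to form interleukin-12 and with p19 (Il23a) to form interleukin-23, and Ebi3 pairs with p28 (Il27) to form interleukin-27 or with p35 to form interleukin-35. Macrophages are a known source of several of these cytokines after Tlr4 stimulation, and a secreted heterodimer needs both of its subunits.

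The promoters of 3 ligand genes with different levels are shown here. Il6 had the most unequal level in the replicates, Ebi3 had the highest level and Il12b lay between them in mean level. Each sequence is the 250 bases before the RefSeq start, on the plus strand of GRCm38.p6 and read 5′ to 3′. They lie at chr5:30012864-30013113 for Il6, chr11:44399813-44400062 for Il12b and chr17:55952373-55952622 for Ebi3. Capitals mark matches to 5 motifs searched in these windows.
Il6: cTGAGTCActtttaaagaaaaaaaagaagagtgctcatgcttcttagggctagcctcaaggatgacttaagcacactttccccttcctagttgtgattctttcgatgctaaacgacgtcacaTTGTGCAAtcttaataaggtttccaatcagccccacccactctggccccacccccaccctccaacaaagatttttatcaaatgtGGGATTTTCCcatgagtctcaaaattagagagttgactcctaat
Il12b: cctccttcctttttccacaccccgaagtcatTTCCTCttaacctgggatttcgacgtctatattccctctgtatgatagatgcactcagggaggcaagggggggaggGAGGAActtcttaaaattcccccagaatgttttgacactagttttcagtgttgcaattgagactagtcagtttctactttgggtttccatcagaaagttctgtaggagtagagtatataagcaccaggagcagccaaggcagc
Ebi3: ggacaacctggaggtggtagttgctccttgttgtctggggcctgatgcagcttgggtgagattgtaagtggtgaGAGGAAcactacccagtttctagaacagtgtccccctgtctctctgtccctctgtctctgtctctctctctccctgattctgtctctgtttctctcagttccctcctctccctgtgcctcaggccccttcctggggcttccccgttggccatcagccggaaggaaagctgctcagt

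The motifs were kappaB (GGGNNNTTCC), AP-1 (TGANTCA), C/EBP (TTGCNNAA) and an ETS core (GAGGAA), each on both strands, and a TATA box (TATAAA) on the strand of the gene. The Il6 window held GGGATTTTCC at 44 to 35 bases upstream of the start, a kappaB match. It also held a C/EBP match at 128 to 121 bases upstream and an AP-1 match at 249 to 243 bases upstream. None of these matches overlapped another. The Il12b window held 2 ETS core matches, at 219 to 214 and 143 to 138 bases upstream, and the Ebi3 window held 1, at 176 to 171 bases upstream. Among the 7 members that the promoter table contains, the kappaB letters occurred in Il6 alone, against 4.65% of all 32851 windows of this length. The AP-1 letters occurred in Il6 and Lif (6.75% of all windows), the C/EBP letters in Il6 (9.56%), and the ETS core in Il6ra, Il12b and Ebi3 (23.3%). The Lif window lies at the start of Lif-202, a form with 0 counts in both libraries. The form with 6 and 11 counts, Lif-201, starts further downstream, at 4267095. No member window held the TATA box letters, which 7.59% of all windows held. A match describes letters only and does not show that a factor is bound. Only these exact letters were searched, so a window without a match can still hold a variant of the site.

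The gene counts summed to 41938419 for replicate 1 and 30780681 for replicate 2. Where a gene had 0 counts, a level of up to 3 counts is allowed, which is 0.0715 and 0.0975 CPM. Intervals and these floors cover counting error only. All 8 macrophage markers reached 1 TPM in each library, with medians of 683 and 582 TPM. TPM is a level per transcript length, scaled to the whole library. Dendritic cell markers, which would mark another known source of interleukin-12 family subunits, summed to 3.47 and 3.66 TPM over 7 genes, with 1 detected and Cd209a at 0 in both libraries. None of the 4 NK cell and none of the 5 mast cell and basophil markers was detected. Of the T and B cell markers, Cd4 and Cd79b were detected, while Cd3e, Cd3d, Cd3g, Cd8a, Cd79a, Ms4a1 and Pax5 stayed below 1 TPM. The 7 stromal markers were all detected and summed to 573 and 650 TPM. The 7 neutrophil markers summed to 75.1 TPM in replicate 1 and 9.88 TPM in replicate 2, with 2 detected and Mpo and Elane at 0 counts in replicate 2. In bulk RNA, fewer cells of a type and less RNA per cell cannot be told apart.

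Of the 10 members 6 were detected, which means 1 TPM or more in each library: Ebi3, Il6st, Il6ra, Osm, Il12b and Il27. Among all 22028 protein-coding genes 48.7% met this rule, so the members' share was near that of the background. Il6 passed in replicate 2 only. Il12a, Lif and Il23a were under 1 TPM in both libraries. By mean TPM the order was Ebi3, Il6st, Osm with Il6ra, Il12b, Il27, Il6, Il12a, Lif and Il23a. The ranges over both libraries overlapped between Osm and Il6ra, between Il12b and Il27, between Il27 and Il6, and between Il12a, Lif and Il23a, so these neighbours were not separated. Ebi3 lay above Il6st, Il6st above Osm, Il6ra above Il12b, and Il6 above Il12a, without overlap.

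**Figure D1:**
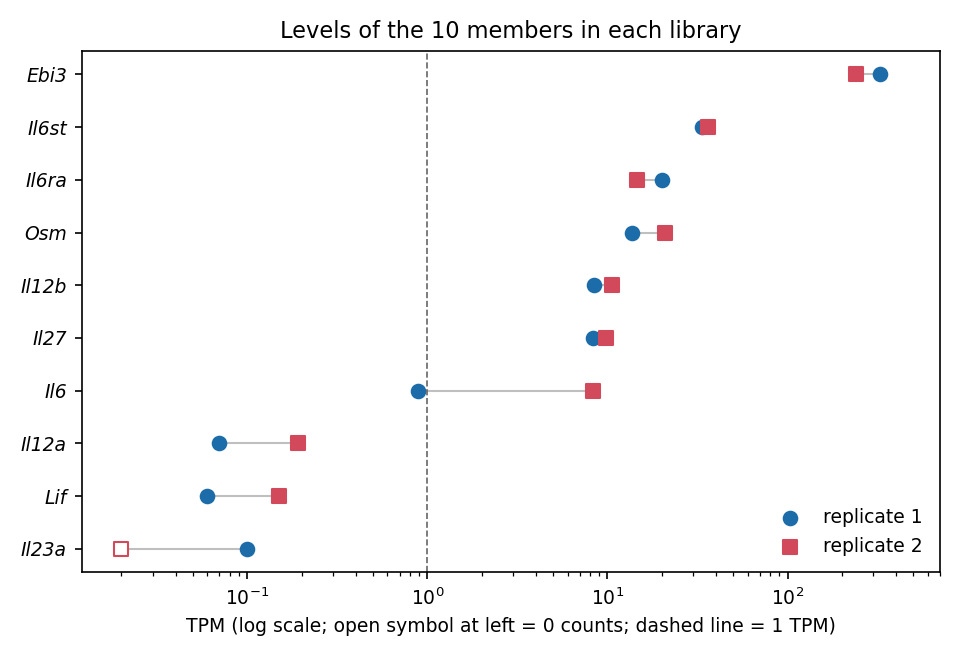
Level of each member in replicate 1 (circles) and replicate 2 (squares), in TPM on a log axis, with the dashed line at 1 TPM and an open symbol for 0 counts. Ebi3 stands far to the right, Il12a, Lif and Il23a lie left of the line in both libraries, and Il6 is the member that lies on both sides of it.

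Ebi3 (ENSMUSG00000003206.7, chromosome 17, 55952640 to 55957022, mm10), the subunit shared by interleukin-27 and interleukin-35, stood at 327 TPM in replicate 1 and 239.9 TPM in replicate 2, a mean of 284 ± 61.6 TPM (SD, n = 2). The deposited interval for replicate 1, 308 to 322 TPM, does not contain the deposited TPM itself, so such intervals were not used to separate libraries. Ebi3 lay above 98.1% of protein-coding genes in replicate 1 and 97.5% in replicate 2. Its partner Il27 (ENSMUSG00000044701.5, chromosome 7, 126589010 to 126594941) stood at 8.28 and 9.84 TPM, a mean of 9.06 ± 1.10 TPM (SD, n = 2). Both libraries thus held far more transcript of the shared subunit than of p28. The TPM ratio of Ebi3 to Il27 was 39.5 in replicate 1 (exact 95% counting interval 34.0 to 46.2) and 24.4 in replicate 2 (20.8 to 28.8), and the intervals did not overlap. In the second deposited quantification, made directly from the reads, the same ratio was 25.9 and 15.7. Ebi3 was the higher of the pair there too, but the ratio was more than 1.5 times smaller. Against Il12a, its partner in interleukin-35, Ebi3 was higher by a factor of 4730 (848 to 187000) and 1250 (490 to 4610). The factor of 4730 rests on 1 count of Il12a, which was given to an annotated retained intron form.

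Whether the counting used strand is unknown, and both genes overlap a gene on the opposite strand. Ebi3 shares 2252 bases with the antisense gene Gm16712, which held 101 and 210 counts against 8095 and 4435 for Ebi3. Il27 shares 103 bases with Apobr, which held 5232 and 4313 counts against 174 and 154 for Il27. The level of Il27 is therefore the less certain of the pair, and it was 1.32 and 1.27 times higher in the read-derived table.

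Il12b (ENSMUSG00000004296.14, chromosome 11, 44400063 to 44414033), the p40 chain, stood at 8.44 and 10.6 TPM on 376 and 356 counts, a mean of 9.52 ± 1.53 TPM (SD, n = 2). It lay above 66.4% and 69.6% of protein-coding genes. Its partner chains were close to the limit of detection. Il12a (ENSMUSG00000027776.12, chromosome 3, 68690644 to 68698547), the p35 chain, had 1 count in replicate 1 and 4 in replicate 2, or 0.07 and 0.19 TPM. Both quantifications gave the replicate 1 count to Il12a-205, an annotated retained intron form without a coding sequence. The 4 counts of replicate 2 were given to Il12a-202, a coding form. Il23a (ENSMUSG00000025383.2, chromosome 10, 128296139 to 128298752), the p19 chain, had 3 counts in replicate 1 (0.10 TPM) and 0 in replicate 2, which allows up to 3 counts.

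Per transcript length, Il12b exceeded Il12a by a factor of 122 in replicate 1 (exact 95% counting interval 21.7 to 4830) and 55.4 in replicate 2 (21.5 to 205). The factor of 122 rests on the 1 count of the retained intron form, not on a coding form of Il12a. Il12b exceeded Il23a by a factor of 85.9 in replicate 1 (29.2 to 418), and it was at least 94.6-fold higher in replicate 2 against a floor of 3 counts in that library. In the read-derived table, where Il23a had more counts, the ratio to Il23a was 39.3 and 191. The lower bounds were above 20 for each pair in both libraries, while the upper bounds are wide because the partners had so few counts. In these cells p40 transcripts were therefore measurable, whereas the chains that complete interleukin-12 and interleukin-23 were at or near the floor at this depth.

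Il6 (ENSMUSG00000025746.11, chromosome 5, 30013114 to 30019981), the founding ligand of its family, stood at 0.89 TPM on 21 counts in replicate 1 and 8.34 TPM on 170 counts in replicate 2. The deposited intervals around these levels, whose confidence level is not given, ran from 0.631 to 1.52 TPM and from 7.07 to 9.78 TPM in the authors' deposited tables. Replicate 2 was the higher by both its TPM and its counts. Their mean of 4.62 ± 5.27 TPM (SD, n = 2) has an SD larger than itself and describes neither library. Il6 lay above 49.8% of protein-coding genes in replicate 1 and above 66.7% in replicate 2.

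Osm (ENSMUSG00000058755.3, chromosome 11, 4236420 to 4241026), which encodes oncostatin M, stood at 13.8 and 20.9 TPM, a mean of 17.3 ± 5.06 TPM (SD, n = 2). Among the ligand genes Il6, Osm and Lif it had the highest level in both libraries. Lif (ENSMUSG00000034394.14, chromosome 11, 4257557 to 4272514), its neighbour on the same chromosome, had 6 and 11 counts, or 0.06 and 0.15 TPM. The genes start within a short distance of each other, and their levels differed widely. Several other ligands of the family were also low. Il11, Cntf, Ctf1 and Clcf1 were below 1 TPM in both libraries, and Il31 had 0 counts in both.

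Il6st (ENSMUSG00000021756.12, chromosome 13, 112464070 to 112510086), which encodes gp130, stood at 33.6 and 36.0 TPM, a mean of 34.8 ± 1.68 TPM (SD, n = 2). Il6ra (ENSMUSG00000027947.11, chromosome 3, 89864059 to 89913196), the ligand-binding chain, stood at 20.1 and 14.6 TPM, a mean of 17.3 ± 3.87 TPM (SD, n = 2). The shared chain was higher than the specific chain in each library. The TPM ratio of Il6st to Il6ra was 1.67 in replicate 1 (exact 95% counting interval 1.60 to 1.75) and 2.46 in replicate 2 (2.33 to 2.60). Il6ra overlaps the antisense gene Gm42809 over 281 bases, but that gene held 1 and 0 counts.

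The chains that pair with gp130 for other ligands differed in level. Il11ra1, the interleukin-11 receptor chain, stood at 38.6 and 27.1 TPM, above Il6ra in both libraries. In the read-derived table the gap was almost absent, with Il11ra1 at 22.9 and 15.2 TPM and Il6ra at 22.4 and 15.1 TPM. Lifr and Osmr were far lower than Il6st and Il6ra. Lifr, the receptor chain for leukemia inhibitory factor, stood at 1.20 and 1.82 TPM. Osmr, the oncostatin M receptor chain, stood at 1.40 and 1.77 TPM. Stromal markers summed to 573 and 650 TPM in these libraries, and their part in the levels of Lifr and Osmr was not tested. Of the 9 listed receptors for either family 6 were detected, with medians of 1.40 and 1.82 TPM. Il12rb1, the chain shared by the interleukin-12 and interleukin-23 receptors, was the highest at 62.6 and 55.1 TPM. Il12rb2, its partner for interleukin-12, stood at 9.27 and 10.7 TPM and Il23r, its partner for interleukin-23, at 2.95 and 3.96 TPM. Il27ra, the specific chain of the interleukin-27 receptor, had 12 counts in each library, or 0.18 and 0.24 TPM. Il31ra was the lowest, at 0.07 and 0.03 TPM.

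The libraries were then compared on counts scaled by TMM, with 0.5 added, and a gene counted as different at 2-fold or more with at least 20 counts in each library. With 1 library on each side, no ratio could be checked in a further replicate, and no p-value was computed. Of the 10 members 7 had enough counts, and Il12a, Il23a and Lif did not. Of these 7, 1 member, Il6, was at least 2-fold higher in replicate 2, against 1.94% of 12471 genes. No member was at least 2-fold lower, against 0.521% of these genes. Because the members were chosen with earlier results of these data known, these shares describe them and test nothing. The median log2 ratio was 0.28 over the 7 members and -0.02 over all 12471 genes. The central 95% of all genes lay between -0.63 and 0.90, and 6 of the 7 members lay inside it. The common dispersion across genes corresponded to a biological coefficient of variation of 17.4%.

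**Figure D2:**
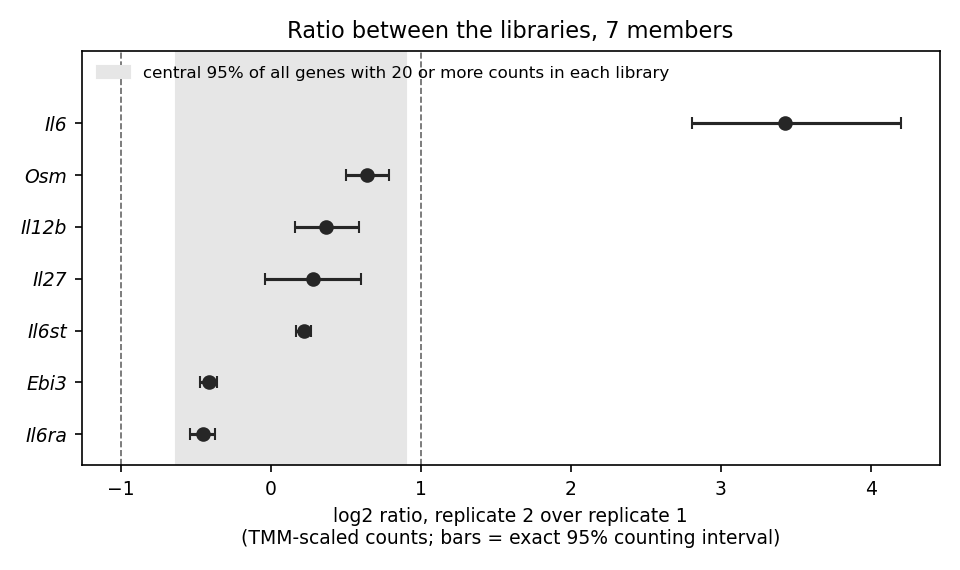
Log2 ratio of replicate 2 over replicate 1 for the 7 members with at least 20 counts in each library, with exact 95% counting intervals as bars, the 2-fold lines dashed and the central 95% of all such genes in grey. Il6 at 3.43 stands outside the band, and the other 6 members lie between -0.45 and 0.64.

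Il6 had scaled counts of 17.9 and 199, a 10.8-fold difference, and its log2 ratio was 3.43 (exact 95% counting interval 2.81 to 4.20). Of the 12471 genes only Tnfsf9, which encodes a costimulatory ligand of the TNF superfamily, had a higher ratio, at 4.46. The count of Il6 in replicate 1 was 21, just above the minimum, and with a minimum of 100 counts no member was past 2-fold.

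The other ligand genes with at least 20 counts in each library were less far apart. Osm had scaled counts of 651 and 1020 and a log2 ratio of 0.64 (0.50 to 0.79), the next highest among the 7 members with enough counts. Il12b stood at 0.37 (0.16 to 0.59) and Il27 at 0.28 (-0.04 to 0.60), so that the interval of Il27 included 0. Ebi3 had the opposite sign, with scaled counts of 6920 and 5190 and a log2 ratio of -0.41 (-0.47 to -0.36). The estimates for the subunits of interleukin-27 thus had opposite signs, but that of Il27 was not separated from 0. The intervals of Il27 and Ebi3 did not overlap. They cover counting error only, and these libraries differed beyond it, so the subunits are not shown to differ.

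The receptor genes also had ratios of opposite sign. Il6st stood at 0.22 (0.17 to 0.27) and Il6ra at -0.45 (-0.54 to -0.37). Among the members with few counts, Lif had 6 and 11 counts with a log2 ratio of 1.25 (-0.23 to 3.05), and Il12a had 1 and 4 counts with 1.94 (-0.88 to 8.08). Both intervals included 0, and a difference was not detectable at this depth. For Il23a both libraries were at or under the floor, and no fold is given.

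Several values of the whole libraries differed in the same comparison. CT010467.1, a nuclear rRNA gene, held 1.37% of replicate 1 and 4.25% of replicate 2. Of the neutrophil markers, S100a9 was the 1 gene with enough counts, at 40.0 and 5.28 TPM and a log2 ratio of -2.94. The stromal markers were higher in replicate 2 for 7 of 7 genes (median log2 ratio 0.27), and Col1a1, Col1a2 and Col3a1 were the highest at 214 and 243, 161 and 186, and 146 and 162 TPM. Of the 8 macrophage markers 6 were lower in replicate 2 and the median log2 ratio was -0.25, with Itgam the lowest at -0.61. Cd14, a coreceptor of Tlr4, was the 1 macrophage marker past 2-fold, with 202 and 428 TPM and a log2 ratio of 1.07. The part of these differences in the ratios of Il6 and the other members was not tested. With the rRNA gene left out of the library totals, Il6 remained the 1 member past 2-fold.

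Genes that act upstream and downstream of the cytokines were read from 7 lists with 49 genes in all. Of these 39 were detected and 41 had at least 20 counts in each. Of the 41, 5 were at least 2-fold higher in replicate 2 and none was at least 2-fold lower, against the background shares of 1.94% and 0.521%. The lists were chosen with earlier results of these data known, so no enrichment can be read from these shares. The 5 genes were Socs3, Nfkbiz, Cish, Nfil3 and Zfp36.

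**Figure D3:**
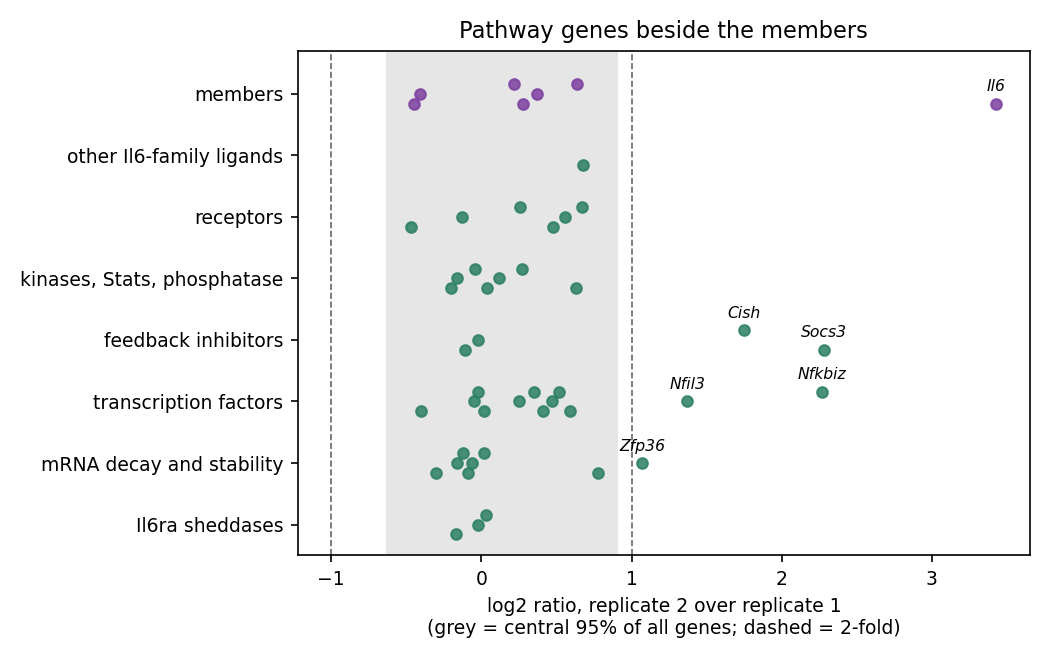
Log2 ratio of replicate 2 over replicate 1 for each gene with at least 20 counts in each library, 1 point per gene, by list, with members on top. The vertical offsets within a list only separate the points. Il6, Socs3, Nfkbiz, Cish, Nfil3 and Zfp36 are the points right of the 2-fold line, and no point lies left of the opposite line.

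Among 4 feedback inhibitors, Socs3, which binds gp130 and blocks its signal, stood at 59.8 TPM in replicate 1 and 280 TPM in replicate 2. Its log2 ratio was 2.28 (exact 95% counting interval 2.22 to 2.33), and 16 of the 12471 genes had a higher one. Cish, another inhibitor of cytokine receptors, had 31 and 77 counts and a log2 ratio of 1.75 (1.15 to 2.42). Its TPM was 0.94 and 1.35, a smaller difference than its counts show, and its read-derived TPM was 0.456 and 2.71. Socs1 and Pias3 stood at -0.02 (-0.27 to 0.23) and -0.11 (-0.25 to 0.04), so the list did not move as 1 group. Its median log2 ratio was 0.86 over 4 genes.

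Among 12 transcription factors and cofactors tied to Il6 or Il12b, all were detected, and the median log2 ratio was 0.38. Nfkbiz encodes IkB zeta, a nuclear cofactor that macrophages need for full Il6 and Il12b expression. It stood at 37.4 TPM in replicate 1 and 174 TPM in replicate 2, with a log2 ratio of 2.27 (2.22 to 2.33), close to that of Socs3. Nfil3, a bZIP repressor of Il12b, stood at 12.0 and 30.1 TPM, with 1.37 (1.22 to 1.51). The other 10 genes ranged from Irf8 at -0.40 (-0.44 to -0.36) to Cebpb at 0.59 (0.49 to 0.69). Atf3, a repressor of Il6 and Il12b, was at 256 and 283 TPM with 0.35 (0.31 to 0.39). The NF-kB subunit genes Rela and Nfkb1 were at -0.02 (-0.10 to 0.06) and -0.05 (-0.11 to 0.01), and both intervals included 0. Atf3 had a mean level of 269 ± 19.4 TPM (SD, n = 2), and Irf1, at 215 and 303 TPM, was not separated from it at the top of the list. In the read-derived table Irf1 was the higher, at 247 and 309 TPM against 239 and 249 TPM. Cebpd had the lowest mean level at 4.16 ± 0.735 TPM (SD, n = 2).

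The 8 decay and stability factors of cytokine mRNA were all detected and had a median log2 ratio of -0.08. Zfp36, whose product tristetraprolin destabilises AU-rich mRNAs, had the highest level at 387 and 787 TPM and a log2 ratio of 1.07 (1.05 to 1.09). Zc3h12a encodes Regnase-1, a nuclease that degrades Il6 mRNA. It stood at 18.9 and 31.7 TPM with 0.78 (0.68 to 0.89), short of 2-fold. Arid5a, which stabilises Il6 mRNA, was at 70.5 and 61.6 TPM with 0.02 (-0.06 to 0.11), and its interval included 0. Rc3h1, which encodes Roquin-1, had the lowest mean, at 6.61 and 6.06 TPM, and was not separated from Rc3h2 at 6.75 and 6.01 TPM.

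The signalling kinases, the Stat factors and the phosphatase gene Ptpn11 varied little, apart from Stat4. Of 7 genes 6 were detected, none was 2-fold apart, and the median log2 ratio was 0.04. Stat3, the main factor downstream of gp130, stood at 86.2 and 90.2 TPM with a log2 ratio of 0.12 (0.08 to 0.16). Stat4, which acts downstream of interleukin-12, was lowest at 0.71 and 1.12 TPM. It had 51 and 58 counts and a log2 ratio of 0.63 (0.07 to 1.21). The proteases that can shed the interleukin-6 receptor, Adam17 and Adam10, stood at 59.7 and 58.5 TPM and at 44.8 and 38.3 TPM. Rhbdf2, a cofactor of Adam17, stood at 26.5 and 25.6 TPM. Receptors for both families had a median log2 ratio of 0.37 over 6 genes, with none 2-fold apart. The extremes were Lifr at 0.67 (0.39 to 0.95) and Il11ra1 at -0.47 (-0.61 to -0.33). Il11ra1 has near-identical copies in the mouse genome, so its counts are uncertain.

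At the transcript level 4 of the 7 members with enough counts were carried by 1 form. For Ebi3 and Il27 this says nothing about the data, because Ebi3-201 and Il27-201 are the only annotated forms of these genes. Il12b and Osm have a second annotated form. Il12b-201 took 100% of the TPM of Il12b in both libraries and both quantifications, and Osm-201 took 96.3 to 98.6% of that of Osm. The remainder of Osm was Osm-202, an annotated processed transcript without a coding sequence.

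Il6, Il6ra and Il6st divided their TPM among coding transcripts. In the read-derived table Il6-201, which encodes 211 residues, took 71.3% and 71.2% of Il6 TPM in replicates 1 and 2, so its share was alike although the levels differed. Il6-204, with 194 codons, took 23.8% and 18.2%, and Il6-203, with 208 codons, took 4.88% and 10.6%. The alignment-derived table divided them otherwise, with Il6-201 at 52.8% and 91.5% and Il6-204 at 42.7% and 0%. In replicate 1 that share of Il6-204 rested on 7.38 expected counts. At 21 counts in replicate 1 the shares of the Il6 forms are imprecise.

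**Figure D4:**
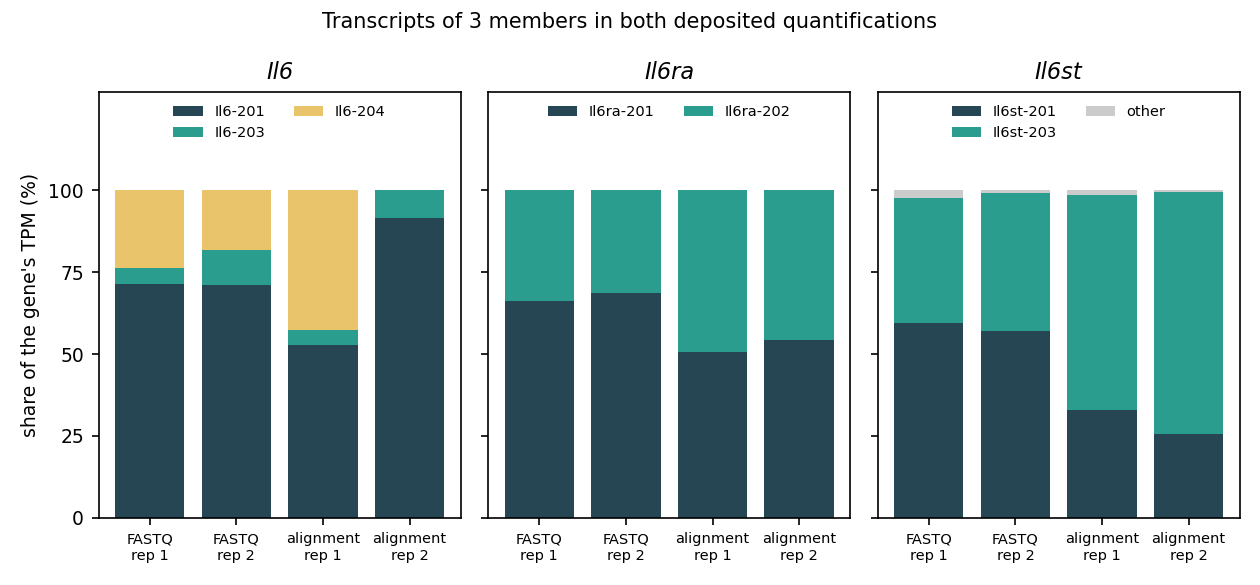
Share of the gene's TPM taken by each transcript of Il6, Il6ra and Il6st, in percent, for replicates 1 and 2 in the read-derived (FASTQ) and the alignment-derived tables. The bars of Il6ra and Il6st change more between the quantifications than between the replicates, with Il6st-201 at 59.6% and 57.1% against 32.8% and 25.6%.

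Il6ra was carried by Il6ra-201 and Il6ra-202, which encode 460 and 459 residues and differ mostly in length outside the coding sequence, with 1963 and 7262 bases. Il6ra-201 took 66.2% and 68.5% of TPM in the read-derived table and 50.5% and 54.4% in the alignment-derived table. Il6st-201 and Il6st-203 have the same annotated coding sequence of 917 codons and differ outside it, with 2456 and 5927 bases. Il6st-201 led in the read-derived table with 59.6% and 57.1%, and Il6st-203 led in the alignment-derived table with 65.8% and 73.9%. The leading form of Il6st thus depended on the quantification, whereas the summed level of Il6st did not, at 34.8 TPM in one and 35.4 TPM in the other.

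Gene levels differed between the quantifications by amounts that varied with the gene. The read-derived mean was 239 TPM against 284 TPM for Ebi3 and 14.8 against 17.3 TPM for Osm. For Il27 it was the higher, at 11.7 against 9.06 TPM. For Il12b it was 9.16 against 9.52 TPM and for Il6 4.27 against 4.62 TPM. Il23a and Lif had few counts in both. For Il23a the read-derived table gave most of its 10.1 and 2.04 estimated counts to Il23a-202, an annotated retained intron form. The alignment-derived table gave that form 0 counts in both libraries.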

How the data were processed

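Polyadenylated RNA was sequenced from 2 libraries, per the labels, which give 1 µg of input RNA and library sizes of 250 to 400. The authors deposited expected counts and TPM per gene and per transcript, made from an alignment to the transcriptome, and estimated counts and TPM per transcript made from the reads. The build was mm10 with GENCODE M21, per the deposited notes. For the aligner, the quantification tools and the strand setting, nothing was given in the sources used here. Expected counts were rounded, and entries that name no gene, 0.0526% and 0.0667% of counts, were left out of library sizes.

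Gene counts of the alignment-derived table were scaled by TMM (edgeR 4.0.16, R 4.3.3), with DESeq2 1.42.0 size factors, total counts, totals without CT010467.1, other count minimums and the read-derived table as alternatives. Ratios are replicate 2 over replicate 1 with 0.5 added. Their intervals are exact (Clopper-Pearson) at 95%. The dispersion was estimated over 13937 genes with an intercept-only design. The libraries differed beyond sampling noise, with a chi-square of 106 per degree of freedom over 12471 genes. The 2-fold rule, the interval and the motif search were tried on simulated data. The interval was tried on counts with sampling noise only, and the 2-fold rule at a dispersion below that of these data. Those trials therefore do not show how either performs at the spread of these libraries. Promoters came from RefSeq (GRCm38.p6), where 7 of the 10 members matched with 8 windows. Python 3.11.15, numpy 2.4.6, pandas 2.3.3 and scipy 1.17.1 were used.

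All 10 members are named whatever their values, and of each list the highest and lowest genes and those 2-fold apart. Socs3, Lifr, Osmr, Nfkbiz, Atf3 and Zc3h12a are named in any case. Some list genes that this rule covers are not reported here. Other list genes were picked as examples with their values known. The members and lists were chosen with earlier results of these data known. With 1 group no test between conditions was possible, and the spread between replicates may be technical.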

Additional observations from a re-analysis of the deposited data

How the results depend on the processing

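The number of members at least 2-fold higher in replicate 2 was 1 with TMM, DESeq2 size factors, total counts, totals without CT010467.1 and read-derived counts. It was 0 with a minimum of 100 counts in each library, which Il6 does not reach in replicate 1, and 3 with no filter, where Il12a and Lif were added. The number at least 2-fold lower was 0 except with no filter, where it was 1, Il23a with 3 and 0 counts. The log2 ratio of Il6 ranged from 3.40 to 3.62 over its settings. Over the 42 alternatives run on the ratios of the 7 members with enough counts, 0 changed sign and 0 left the counting interval. The number of members detected was 6 or 7 under each threshold from 0.5 to 5 TPM, in the read-derived table and without either replicate. A ratio between 2 libraries has no value without one of them. Counts limit Il12a, Il23a and Lif, for which no difference could be measured. No paired analysis was possible because there is only 1 group.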
